A study of Mus musculus with 7 samples.

Results

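The genes described here are 37 DNA replication genes, the S-phase machinery and the enzymes that supply its nucleotides, measured in the small intestine of mice on a normal or a low cystine diet. They were taken by gene name from the deposited table, which lists 38293 genes, and each of the 37 names matched 1 gene. All 37 passed the filter on low counts, together with 14869 genes in all. The mice were male C57BL/6NRJ, 8 weeks old and individually housed. They received a purified, low calcium AIN93G high fat diet (40% of energy from fat) for 1 week of acclimatization. For the next 2 weeks, 4 sequenced mice stayed on this diet (normal cys), to which 0.3% L-cystine is added, and 3 sequenced mice received the same diet with that cystine replaced by alanine (low cys). According to the paper, the low cys diet still held the cystine that comes with its casein. RNA came from scrapings of the ileum, 1 library per mouse, which hold the epithelium and the lamina propria and not the muscle layer.

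In the epithelium of the small intestine, cell division is confined to the crypts. There, transit-amplifying cells copy their DNA before they differentiate and move onto the villus. Replication starts with licensing, in which the origin recognition complex, Cdc6 and Cdt1 load the ring of Mcm2 to Mcm7 onto DNA, and continues when Cdc45 and the GINS complex turn that ring into an active helicase. DNA polymerases, the sliding clamp PCNA with its loader, and ribonucleotide reductase and thymidylate synthase, which make deoxynucleotides, do the rest, and many of these genes are switched on together at the start of S phase by the E2F transcription factors. In a bulk scraping, fewer cells in S phase and less RNA per cell cannot be told apart.

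The promoters of 31 of the 37 genes were in the RefSeq table used here (GRCm38.p6). In the 250 bases before the start site, 7 of the 31 (22.6%) held an E2F-type motif, TTTCCCGC, TTTCGCGC, TTTGCCGC or TTTGGCGC on either strand. So did 3.87% of the tested genes with a promoter there (9482 of 14833 gene symbols) and 2.16% of all gene symbols in the table. The 7 were Pola1, Rfc3, Cdc6, Mcm5, Mcm6, Mcm7 and Orc1. The motif of Rfc3, Mcm7 and Orc1 lay within an annotated exon. The other 4 stretches are shown, as the E2F-type promoters of replication genes in which the motif lies outside annotated exons. They run 5′ to 3′ on the strand of the gene up to the base before the RefSeq start site, without annotated exons, and capitals mark the motif, read on either strand. Pola1 is at chrX:93632156-93632405 (minus strand), Cdc6 at chr11:98907982-98908150 (plus strand, within an intron of longer transcripts), Mcm5 at chr8:75109259-75109508 (plus strand) and Mcm6 at chr1:128359706-128359955 (minus strand).
Pola1: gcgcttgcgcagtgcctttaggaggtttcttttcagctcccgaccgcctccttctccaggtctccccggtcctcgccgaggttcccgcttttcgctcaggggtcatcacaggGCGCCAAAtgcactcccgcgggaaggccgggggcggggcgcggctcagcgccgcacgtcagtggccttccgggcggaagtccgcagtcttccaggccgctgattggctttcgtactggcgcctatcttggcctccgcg
Cdc6: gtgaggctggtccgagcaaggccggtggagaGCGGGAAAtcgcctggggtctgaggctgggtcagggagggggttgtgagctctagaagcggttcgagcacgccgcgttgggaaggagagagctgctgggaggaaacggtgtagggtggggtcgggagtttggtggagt
Mcm5: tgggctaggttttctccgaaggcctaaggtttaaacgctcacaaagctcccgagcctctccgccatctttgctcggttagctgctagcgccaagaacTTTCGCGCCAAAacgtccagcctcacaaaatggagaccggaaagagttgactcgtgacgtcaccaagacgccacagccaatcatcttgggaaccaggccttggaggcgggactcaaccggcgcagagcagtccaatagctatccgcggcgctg
Mcm6: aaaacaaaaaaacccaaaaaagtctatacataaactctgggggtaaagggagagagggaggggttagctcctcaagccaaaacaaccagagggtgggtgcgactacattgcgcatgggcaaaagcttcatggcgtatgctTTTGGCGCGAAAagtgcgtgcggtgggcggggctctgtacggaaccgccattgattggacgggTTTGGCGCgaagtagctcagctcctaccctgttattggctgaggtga
In Mcm5 the capitals are 2 motifs on opposite strands that overlap, and in Mcm6 they are 3 motifs, of which 2 overlap in the same way. A match is a string of letters, and binding was not measured.

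The libraries held between 14888760 and 22412703 counts, and the low cys libraries X26SI4 and X10SI4 were the shallowest. Of these counts, the 37 genes together took 0.0406% ± 0.0123 (SD, n = 4) in normal cys and 0.0541% ± 0.0148 (SD, n = 3) in low cys mice. Counts of single genes ran from 12 (Pole2 in normal cys library X1SI4) to 1378 (Pcna in low cys library X23SI4). Values are given as CPM, counts scaled to the TMM-normalized library size, and differences between the diets are edgeR estimates on the log2 scale.

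The comparison of the diets asks whether expression of the replication machinery differed when dietary cystine was restricted. The estimate was positive, that is higher in low cys, for 36 of the 37 genes, against 51.2% of the 14869 genes tested. The median log2 fold change was 0.37, a 1.29-fold difference, against 0.01 over all genes tested. In the test itself, 0 of the 37 genes had an adjusted p-value under 0.05 in edgeR's quasi-likelihood test, as did 0% of all genes, and the smallest adjusted p-value among the 37 was 0.794. At an unadjusted p-value under 0.05, 1 of the 37 (Prim1) was higher and 0 were lower, against 2.66% higher and 2.83% lower of all genes, or 5.49% in either direction. In 3 genes (Prim1, Gins1 and Pole2) the lowest low cys library exceeded the highest normal cys library, which held for 3.32% of all genes, and 0 genes were separated in the other direction, against 3.51%. The 95% interval of the log2 fold change contained 0 in 36 of the 37 genes. In 19 of the 37, Prim1 included, it reached beyond 1, so that a 2-fold difference lay within it. The plot of fold changes by gene shows the same estimates with their intervals.

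**Figure D1:**
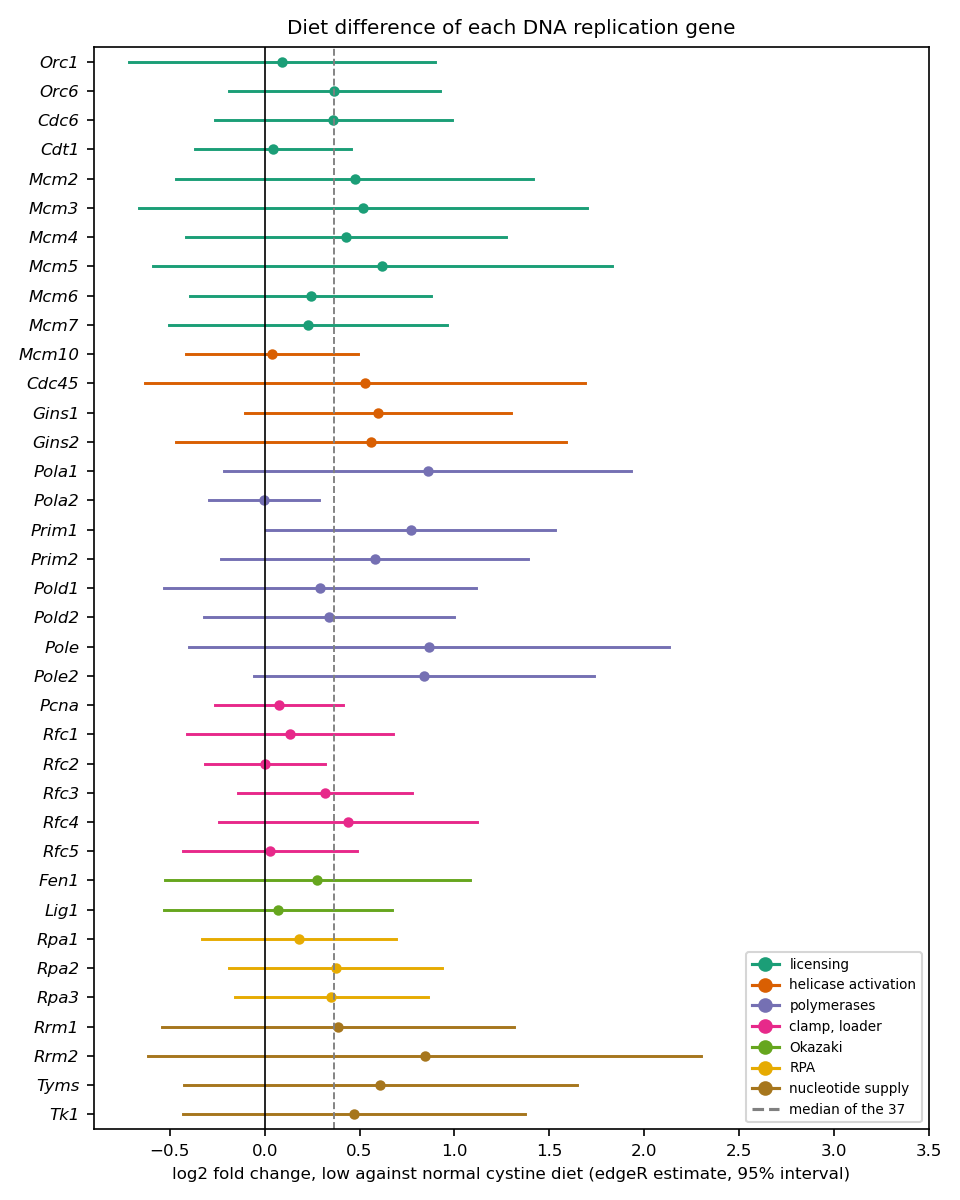
Log2 fold change of each of the 37 genes, low against normal cystine diet (x axis, points are edgeR estimates, bars 95% intervals), coloured by role, with the median of 0.37 as a dashed line. Estimates run from 0.00 to 0.87 and only the interval of Prim1 excludes 0.

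The 37 genes took a similar order of the mice, and that order cut across the diets. Normal cys library X1SI4 was the lowest of the 7 libraries in 32 of the 37 genes, against 24.9% of all genes tested, and low cys library X23SI4 was the highest in 26 of them, against 18.0%. Among the normal cys libraries, X17SI4 and X32SI4 both lay above SI9 and X1SI4 in 30 genes, against 23.7% of all genes. Among the low cys libraries, X26SI4 was the lowest in 33 genes, against 36.0%. X17SI4, on the normal diet, lay above X26SI4, on the low cystine diet, in 30 of the 37 genes, against 47.2%. The mean log2 CPM over the 37 genes was 3.46 in X17SI4, 3.27 in X32SI4, 2.77 in SI9 and 2.29 in X1SI4 on the normal diet, and 3.72 in X23SI4, 2.99 in X26SI4 and 3.42 in X10SI4 on the low cystine diet. The lowest low cys library was thus above SI9 and X1SI4 and below X17SI4 and X32SI4. The heat map by library shows this as a blue X1SI4 column and a red X23SI4 column through most genes.

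**Figure D2:**
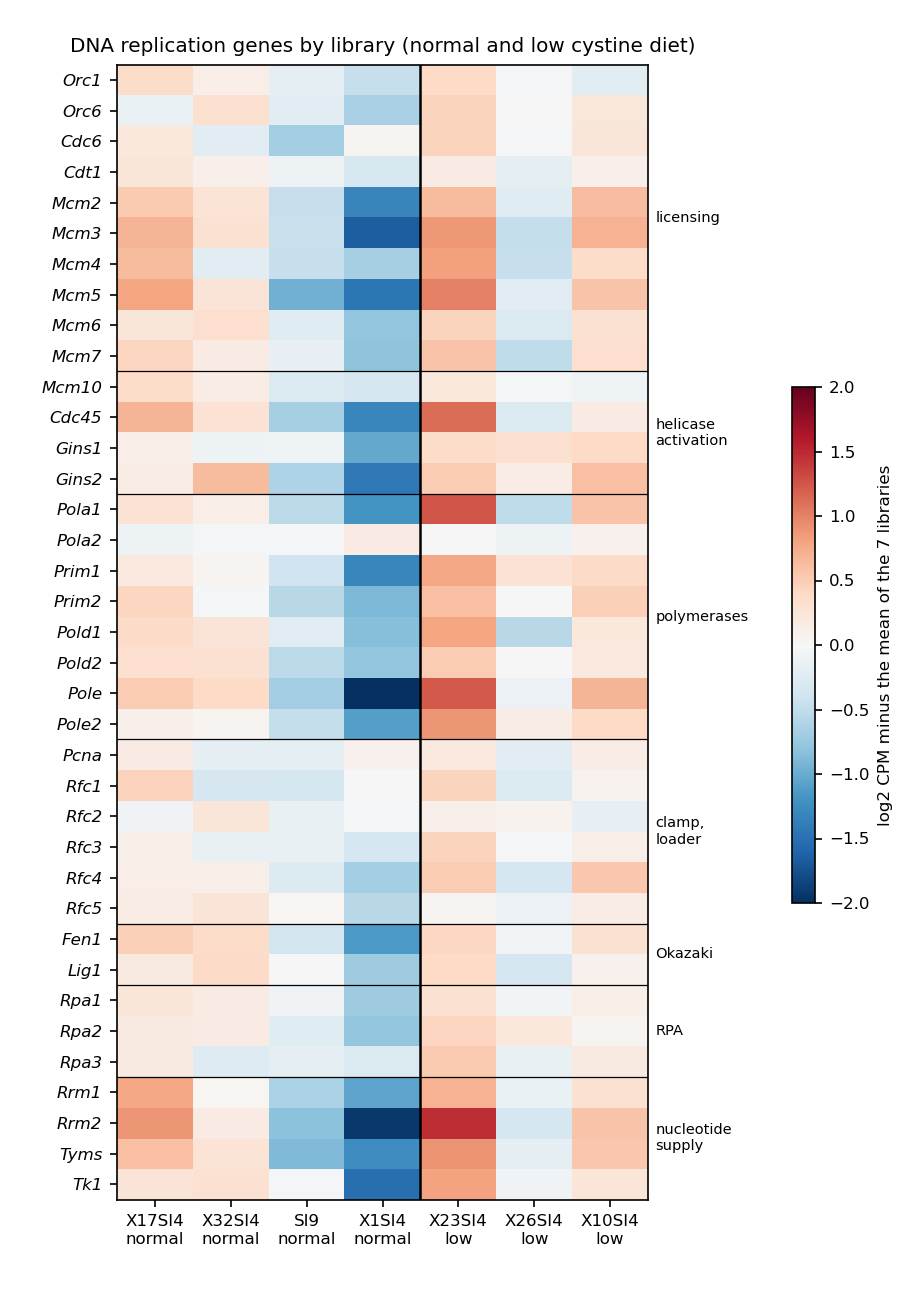
Log2 CPM of each of the 37 genes (rows, grouped by role) in each library (columns) after subtraction of the gene's mean over the 7 libraries. The X1SI4 column is the lowest in 32 of the 37 rows and the X23SI4 column the highest in 26, while Pola2, Pcna and Rfc2 are pale throughout.

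Mice on one diet differed from each other more in these genes than in the median gene. The SD of log2 CPM among the normal cys libraries had a median of 0.53 over the 37 genes and 0.31 over all genes tested, and among the low cys libraries 0.34 and 0.20. Across the 37 genes, the SD among normal cys libraries and the log2 fold change between the diets ran together (Pearson's r = 0.74, Spearman's rho = 0.79, n = 37 genes, a description, since both values use the same normal cys libraries and genes are not independent replicates). The genes with the higher estimates were also the genes with lower counts (Spearman's rho = -0.64 between mean log2 CPM and log2 fold change, n = 37 genes). Counting error is larger at lower counts, and its part in these estimates was not tested.

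Each library was left out in turn, including X1SI4, so often the lowest, and X23SI4, so often the highest. Leaving out the lowest normal cys or the highest low cys library lowers the difference by that library's position. Leaving out the highest normal cys library, X17SI4 in 29 of the 37 genes, raises it. The median log2 fold change over the 37 genes was 0.22 without X1SI4 and 0.19 without X23SI4, with 31 and 30 positive estimates. Without X17SI4 it was 0.50 and 7 genes had an unadjusted p-value under 0.05 in edgeR (Prim1, Rrm1, Prim2, Mcm4, Rrm2, Pole2 and Mcm5), all higher, beside 6.30% of all genes higher in that fit. The count was 1 (Prim1) without X1SI4, beside 3.42% of all genes higher. It was 0 without SI9 (1.44% of all genes), X23SI4 (1.16%) or X10SI4 (1.54%), and 2 without X32SI4 (3.02%) or X26SI4 (3.47%). The number of genes whose diets did not overlap was 6 without X17SI4, against 8.58% of all genes separated in that direction, and 13 without X26SI4, against 11.6%.

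The licensing genes had a median log2 fold change of 0.36, with 10 of 10 estimates positive, against 51.2% of all genes tested. In edgeR, 0 of 10 were past an unadjusted p-value of 0.05, against 5.49% of all genes in either direction. Mcm5, a subunit of the replicative helicase on chromosome 8 from 75109528 to 75128439, had 21.9 CPM in X17SI4, 15.1 in X32SI4, 6.41 in SI9 and 4.59 in X1SI4 on the normal diet. On the low cystine diet it had 25.5 CPM in X23SI4, 10.7 in X26SI4 and 18.8 in X10SI4. The diets overlapped, with X26SI4 below X17SI4 and X32SI4 (log2 fold change 0.62, standard error 0.53, exact permutation p = 0.343). Mcm3, another subunit of that ring, spanned 2.77 to 14.3 CPM on the normal and 6.37 to 16.3 CPM on the low cystine diet. Mcm6, whose promoter holds 3 E2F-type motifs, was the subunit with the most counts per exon length, and its range of 13.6 to 29.7 CPM on the normal diet enclosed 2 of the 3 low cys libraries. The log2 fold change was 0.47 for Mcm2, 0.52 for Mcm3, 0.43 for Mcm4, 0.24 for Mcm6 and 0.23 for Mcm7. All 6 subunits of the ring therefore had a positive estimate with an interval that contained 0. Mcm7 carries a further limit, since 23.3% of the 50-base stretches of its transcripts also occur in other genes, most in the pseudogene Gm5487.

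The loading factors differed less between mice than the ring they load. Cdt1, which brings the ring to the origin, had 15.2 CPM in X17SI4, 13.8 in X32SI4, 12.0 in SI9 and 10.2 in X1SI4 on the normal diet. It had 14.4 CPM in X23SI4, 11.2 in X26SI4 and 13.8 in X10SI4 on the low cystine diet, within the normal range (log2 fold change 0.04, 95% interval -0.37 to 0.45). Cdc6, the ATPase that recruits Cdt1, ran from 2.21 to 4.18 CPM on the normal and from 3.5 to 4.94 CPM on the low cystine diet, and its lowest library was SI9, not X1SI4. Orc6 and Orc1, subunits of the origin recognition complex, had log2 fold changes of 0.37 (standard error 0.25) and 0.09 (standard error 0.36). Orc1 had between 15 and 38 counts per library and was the least abundant of the 37 genes per exon length, at 0.338 CPM per kilobase. In Orc1, 10.8% of the exon bases are covered by a gene on the other strand.

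Of the helicase activation genes, Gins1 separated the diets. Gins1 (chromosome 2 from 150905400 to 150931280), a subunit of the GINS complex, had 2.77 CPM in X17SI4, 2.36 in X32SI4, 2.37 in SI9 and 1.19 in X1SI4 on the normal diet. On the low cystine diet it had 3.31 CPM in X23SI4, 3.19 in X26SI4 and 3.35 in X10SI4. The low cys mice lay close together above all normal cys mice, with 25 to 81 counts behind each value. The log2 fold change was 0.60 (standard error 0.31, edgeR p = 0.0871 unadjusted and 0.794 adjusted by Benjamini-Hochberg), and an exact permutation test of the 7 libraries (two-sided) gave p = 0.0571, where 0.0286 is the smallest it can give. Cdc45, which joins the ring and GINS in the active helicase, ran from 1.24 to 5.23 CPM on the normal and from 2.62 to 7.10 CPM on the low cystine diet (log2 fold change 0.53, standard error 0.51). Gins2 had a log2 fold change of 0.56 (standard error 0.46), but 67.3% of its exon bases are covered by Gse1 on the other strand. The strand setting of the counting is not named, so it is not known how reads in these bases were counted. Mcm10, which helps to activate the helicase and is no part of the ring, differed little, with 12.1 to 19.6 CPM on the normal and 14.4 to 17.7 CPM on the low cystine diet (log2 fold change 0.04).

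The polymerase genes had a median log2 fold change of 0.67, the highest of the 7 roles. Of their estimates, 7 of 8 were positive, against 51.2% of all genes tested. In edgeR, 1 of 8 was past an unadjusted p-value of 0.05, against 5.49% of all genes in either direction. Prim1, the catalytic subunit of the primase that makes the RNA primers, lies on chromosome 10 from 128015168 to 128030037. It had 6.69 CPM in X17SI4, 6.09 in X32SI4, 4.42 in SI9 and 2.29 in X1SI4 on the normal diet. On the low cystine diet it had 9.999 CPM in X23SI4, 7.19 in X26SI4 and 7.67 in X10SI4, so that the diets did not overlap. Its log2 fold change was 0.77 (standard error 0.34, 95% interval 0.01 to 1.53), with an edgeR p of 0.0484 unadjusted and 0.794 adjusted, and the two-sided exact permutation test gave p = 0.0857. The unadjusted p of Prim1 ranged from 0.0232 to 0.158 over the alternatives and left-out libraries, and it was above 0.05 with DESeq2's size factors and without SI9, X23SI4, X26SI4 or X10SI4.

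Pole2, an accessory subunit of polymerase epsilon, which copies the leading strand, also separated the diets. It had 1.46 CPM in X17SI4, 1.41 in X32SI4, 0.946 in SI9 and 0.573 in X1SI4 on the normal diet. The low cys values were 2.57 CPM in X23SI4, 1.4999 in X26SI4 and 1.804 in X10SI4. X26SI4 and X17SI4 nearly touch, at 12 to 63 counts per library (log2 fold change 0.84, standard error 0.40, edgeR p = 0.0626 unadjusted, exact permutation p = 0.114). Its partner Pole, the catalytic subunit, had the largest estimate of the 37, a log2 fold change of 0.87, but also a standard error of 0.56. Pole ran from 1.147 CPM in X1SI4 to 6.90 in X17SI4 on the normal diet, a 6.02-fold range among mice on the same diet, and had 11.5 CPM in X23SI4, 4.44 in X26SI4 and 7.80 in X10SI4 on the low cystine diet.

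Pola1 and Pola2 encode the catalytic and the second subunit of polymerase alpha, which extends the primers, and their values did not run together. Pola1, with an E2F-type motif in its promoter, had 1.19 to 3.55 CPM on the normal diet and 7.02 CPM in X23SI4, 2.0 in X26SI4 and 4.32 in X10SI4 on the low cystine diet (log2 fold change 0.86, standard error 0.48). Pola2 had 18.7 CPM in X17SI4, 19.8 in X32SI4, 19.9 in SI9 and 22.5 in X1SI4 on the normal diet, and 20.3 in X23SI4, 18.8 in X26SI4 and 21.5 in X10SI4 on the low cystine diet. It was the gene of the 37 with the narrowest range among normal cys mice (1.21-fold), and X1SI4 was its highest library. Its log2 fold change was 0.00 (95% interval -0.29 to 0.28). Prim2, the other primase subunit, had a log2 fold change of 0.58 (standard error 0.36). Pold1 and Pold2, the catalytic and an accessory subunit of polymerase delta, which copies the lagging strand, had estimates of 0.29 (standard error 0.36) and 0.34 (standard error 0.29).

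**Figure D3:**
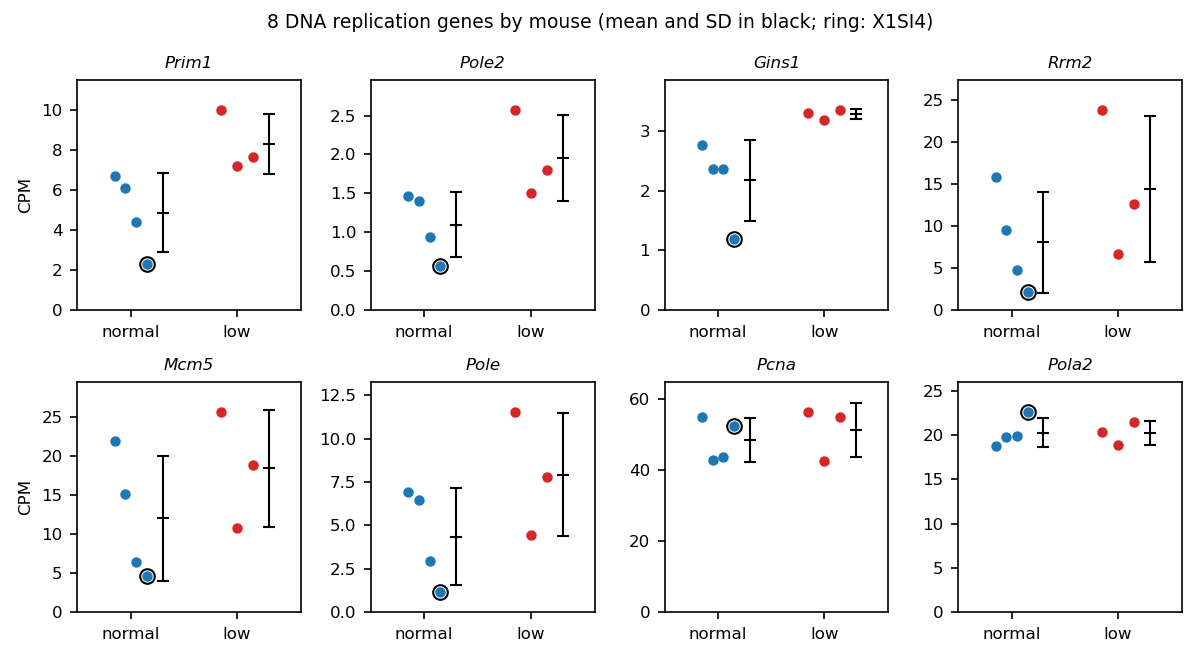
CPM of 8 genes in each mouse (points, normal cystine diet in blue and low cystine diet in red) with the mean and SD of each diet in black; the ring marks X1SI4. The genes were picked after their values were seen: in Prim1, Pole2 and Gins1 the diets do not overlap, Rrm2, Mcm5 and Pole have the wide spread between mice, and Pcna and Pola2 the narrow one.

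The clamp and its loader had the lowest median of the 7 roles, a log2 fold change of 0.10. Of their estimates, 6 of 6 were positive, against 51.2% of all genes tested. In edgeR, 0 of 6 were past an unadjusted p-value of 0.05, against 5.49% of all genes in either direction. Pcna, the sliding clamp that tethers the polymerases, lies on chromosome 2 from 132249162 to 132253314 and was the most abundant of the 37 genes per exon length, at 20.7 CPM per kilobase. It had 55.0 CPM in X17SI4, 42.9 in X32SI4, 43.6 in SI9 and 52.4 in X1SI4 on the normal diet. On the low cystine diet it had 56.2 CPM in X23SI4, 42.4 in X26SI4 and 54.8 in X10SI4. The diets overlapped almost fully, and X1SI4 was not low (log2 fold change 0.08, 95% interval -0.26 to 0.41). In Pcna 19.1% of the 50-base stretches also occur in other genes, most in Pcna-ps2. Of the 5 loader genes, Rfc2 had the next highest level, 18.1 CPM per kilobase, and a log2 fold change of 0.00 (95% interval -0.31 to 0.32). Rfc1, the large loader subunit, had 0.13, Rfc3 0.32, Rfc4 0.44 and Rfc5 0.03, with standard errors between 0.20 and 0.30 for these 4 genes. A gene on the other strand covers 12.65% of the exon bases of Rfc4 (Eif4a2) and 10.69% of those of Rfc5 (Wsb2). Of the 50-base stretches, 15.95% in Rfc2 and 13.3% in Rfc5 also occur in other genes, most in Lat2 and Wsb2.

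Fen1, the nuclease that trims the flap of an Okazaki fragment, ran from 5.26 to 16.6 CPM on the normal and from 11.4 to 15.8 CPM on the low cystine diet (log2 fold change 0.28, standard error 0.35). Of its exon bases, 84.2% are covered by genes on the other strand, so its counts are uncertain. Lig1, the ligase that seals the fragments, had 11.2 to 24.1 CPM and 14.6 to 24.2 CPM (log2 fold change 0.07, standard error 0.27). The estimate of Lig1 was negative without X1SI4 (-0.11) and without X23SI4 (-0.11). The subunits of RPA, which coats single-stranded DNA, had log2 fold changes of 0.18 (Rpa1), 0.38 (Rpa2) and 0.35 (Rpa3), with standard errors between 0.23 and 0.25. In Rpa2 the low cys libraries had 12.98 CPM (X23SI4), 11.1 (X26SI4) and 9.92 (X10SI4), while X17SI4 and X32SI4 on the normal diet had 10.8 and 10.7, so that X10SI4 was below both.

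The 4 genes of nucleotide supply had a median log2 fold change of 0.54, with 4 of 4 estimates positive, against 51.2% of all genes tested. In edgeR, 0 of 4 were past an unadjusted p-value of 0.05, against 5.49% of all genes in either direction. Rrm2, the subunit of ribonucleotide reductase that is made in S phase, lies on chromosome 12 from 24708241 to 24714146. It had 15.8 CPM in X17SI4, 9.49 in X32SI4, 4.78 in SI9 and 2.15 in X1SI4 on the normal diet. On the low cystine diet it had 23.8 CPM in X23SI4, 6.69 in X26SI4 and 12.6 in X10SI4. The range among normal cys mice was 7.34-fold, the widest of the 37 genes, and that among low cys mice 3.56-fold, both wider than the difference between the diets (log2 fold change 0.84, standard error 0.64, exact permutation p = 0.314). Its partner Rrm1 had a log2 fold change of 0.39 (standard error 0.41). Tyms, which makes thymidylate, had 0.61 (standard error 0.46), and Tk1, the salvage kinase for thymidine, 0.47 (standard error 0.40). Tk1 had 4.87 CPM in X1SI4 against 13.8 to 17.3 CPM in the other normal cys libraries, and 24.7 CPM in X23SI4.

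Other genes of the cell cycle were examined as lists of their own. Over all genes tested, 51.2% had a positive estimate, and at an unadjusted edgeR p-value under 0.05 2.66% were higher and 2.83% lower. Of 47 other replication genes, 37 (78.7%) had a positive estimate, with a median log2 fold change of 0.20. At that threshold, 1 of the 47 was higher and 0 were lower. The gene that passed was Dck, a kinase that salvages deoxycytidine, with 7.52 ± 0.995 CPM (SD, n = 4) in normal cys and 10.4 ± 1.83 CPM (SD, n = 3) in low cys mice. Of 30 regulators of the G1/S transition, 20 (66.7%) had a positive estimate, 1 was higher and 0 were lower, with a median of 0.25. That gene was Cdkn2c, an inhibitor of the cyclin D kinases, with 4.21 ± 0.885 CPM (SD, n = 4) and 6.67 ± 1.67 CPM (SD, n = 3). Of 28 mitosis genes, 28 had a positive estimate, 2 (Bub1, a spindle checkpoint kinase, and Anln, a scaffold of the cleavage furrow) were higher and 0 were lower, and the median was 0.62. In all 3 lists 0 genes had an adjusted p-value under 0.05 in edgeR.

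The order of the mice in the 37 genes was also that of the mitosis genes. The mean log2 CPM of the mitosis list was 4.23 in X17SI4, 3.67 in X32SI4, 2.84 in SI9 and 2.38 in X1SI4 on the normal diet, and 4.39 in X23SI4, 3.53 in X26SI4 and 4.15 in X10SI4 on the low cystine diet. X1SI4 was the lowest of the 7 libraries in 27 of the 28 mitosis genes. Mki67, the gene of the proliferation marker Ki67, had 107 CPM in X17SI4, 88.3 in X32SI4, 41.9 in SI9 and 30.4 in X1SI4 on the normal diet. On the low cystine diet it had 128 CPM in X23SI4, 72.5 in X26SI4 and 106.9 in X10SI4 (log2 fold change 0.61, standard error 0.42, exact permutation p = 0.314). As in the replication genes, 2 normal cys mice reached the level of the low cys mice.

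**Figure D4:**
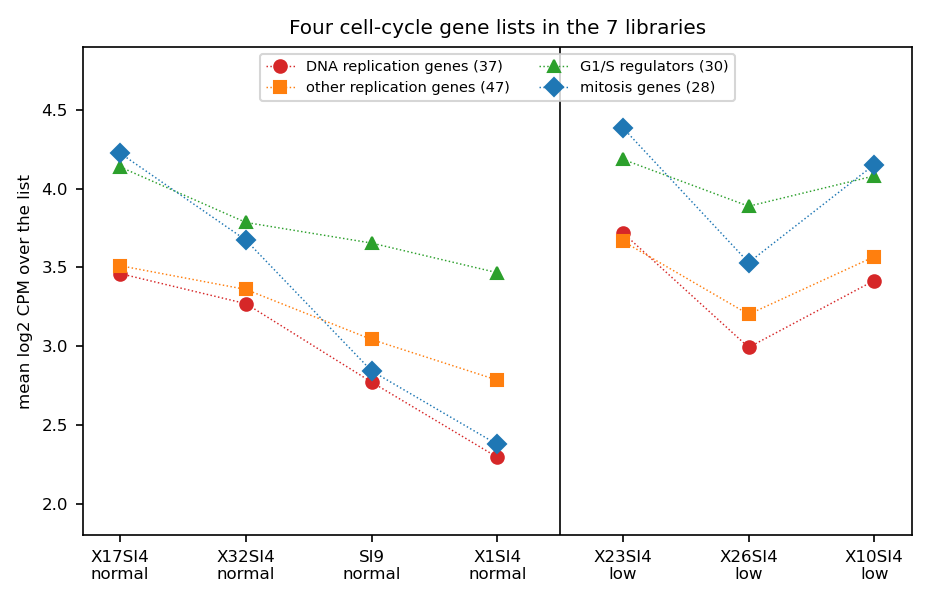
Mean log2 CPM (y axis) over the 37 DNA replication genes and over 3 other lists in each library (x axis, normal cystine diet left and low cystine diet right, dotted lines only join the points of a list). X1SI4 is the lowest and X23SI4 the highest library in each of the 4 lists, and the mitosis genes span the widest range, from 2.38 to 4.39.

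The markers of other cells of the scraping were summed in the same libraries. The summed CPM of 7 Paneth cell markers was 4665 in X17SI4, 2402 in X32SI4, 2331 in SI9 and 703 in X1SI4 on the normal diet, and 4830 in X23SI4, 2819 in X26SI4 and 5094 in X10SI4 on the low cystine diet. All 7 had a positive estimate and 0 an unadjusted p-value under 0.05. Of 9 enterocyte markers, 0 had a positive estimate and 2 were lower at an unadjusted p-value under 0.05, and their summed CPM ran from 32518 to 44582 on the normal and from 19611, in X23SI4, to 31545 on the low cystine diet, without overlap. The sum over 9 stem cell markers was 160 ± 41.8 (SD, n = 4) and 157 ± 22.1 CPM (SD, n = 3), with 7 of 9 estimates positive and 0 of 9 past an unadjusted p-value of 0.05. The stroma markers summed to between 4.11 and 8.93 CPM on the normal and between 11.8 and 18.6 CPM on the low cystine diet. Those of B and plasma cells summed to 38.8 to 127 and 155 to 230 CPM, although only 3 of 5 tested markers had a positive estimate. At an unadjusted edgeR p-value under 0.05, 2 of 5 tested stroma markers were higher in low cys. So were 1 of 5 B and plasma cell, 1 of 5 smooth muscle and 1 of 5 enteroendocrine markers. Over all genes tested, 2.66% were higher and 2.83% lower at that threshold. Smooth muscle markers summed to 2.15 to 10.8 CPM on the normal diet. On the low cystine diet they summed to 5.22 CPM in X23SI4, 32.6 in X26SI4 and 12.8 in X10SI4. The summed CPM overlapped between the diets for the markers of goblet, enteroendocrine, tuft, T and germinal center B cells, and endothelial markers summed to 1.05 to 4.19 CPM in all libraries. The ileal markers found in the table (3 of 5) summed to between 3221 and 8088 CPM. No other part of the intestine was compared, so these sums do not test the ileal origin. Lum (stroma) and Kdr (endothelium) were at 0 counts in at least 1 library, and no marker found in the table was at 0 in all of them. The part of these cells in the values of the replication genes was not tested.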

How the data were processed

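RNA of ileal scrapings from 4 normal cys and 3 low cys mice was sequenced as stranded poly(A) libraries. The authors trimmed the reads, removed ribosomal reads, aligned the rest to GRCm38 with STAR and counted exons with featureCounts on Ensembl genes. They deposited raw counts per gene, with the exon length of each gene, without normalization. Here genes were kept by filterByExpr of edgeR (version 4.0.16, minimum count 10, minimum total count 15), normalized by TMM and tested over all 14869 genes with the robust quasi-likelihood test in R 4.3.3, with no covariate and Benjamini-Hochberg adjustment. Log2 CPM used a prior count of 2, and CPM per kilobase used the deposited exon length. DESeq2 1.42.0, voom of limma 3.58.1, other scalings and filters and leaving out each library were the alternatives. The edgeR step was tested on simulated data. A count measures reads with counting error, so genes of few counts are less precise. No sequencing batch is named in the sources used here.

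The 37 genes, the lists, the tests and the rule for naming genes (all 37, and of the other lists those with an unadjusted p-value under 0.05 and Mki67) were chosen with earlier results of these data known. Mice are the replicates, and no 2 libraries held the same counts. Promoters came from RefSeq (GRCm38.p6) and shared 50-base stretches from GENCODE M21 transcripts.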

Additional observations from a re-analysis of the deposited data

How the results depend on the processing

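Each library came from a different mouse and the labels pair no mice across the diets, so the diets were compared without pairing. The number of replication genes with an unadjusted p-value under 0.05 and a higher level in low cys was 1, beside 2.66% of all genes. It was 0 with DESeq2's size factors within edgeR (2.46% of all genes), 3 when libraries were scaled to their totals alone (6.13%), 2 with at least 10 counts in every library (2.73%) and 2 with limma-voom (3.497%). It ranged from 0 to 7 when each library was left out, where the share of all genes ranged from 1.16% to 6.30%, and the number of genes whose diets did not overlap from 3 to 13, where that share ranged from 4.16% to 11.6%. The number of replication genes with an adjusted p-value under 0.05 was 0 in every fit, while over all genes it was 16 in DESeq2, 1 in edgeR without X32SI4 and 0 in the other fits, and no replication gene was lower at an unadjusted p-value under 0.05 in any of them. The median log2 fold change ranged from 0.35 to 0.51 over the 8 other settings and from 0.19 to 0.53 with a library left out. Scaling to library totals raised the median of all genes to 0.15, and relative to it the 37 genes kept a difference of 0.36. Estimates near 0 changed sign: Rfc2 was -0.0041 with DESeq2's size factors, -0.014 without a filter and -0.0038 in DESeq2, and Pola2 was 0.14 with library totals and 0.0069 with at least 10 counts in every library. With a library left out, the estimate ranged from -0.12 to 0.25 for Orc1, -0.051 to 0.17 for Cdt1, -0.057 to 0.18 for Mcm10, -0.052 to 0.067 for Pola2, -0.072 to 0.59 for Pold1, -0.064 to 0.34 for Rfc1, -0.052 to 0.11 for Rfc2, -0.12 to 0.14 for Rfc5 and -0.11 to 0.26 for Lig1. The cause was not tested.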

Other observations

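Promoter motifs were counted in the replication genes and the 3 other lists, as a description without a test. Each share is of the genes with a RefSeq promoter, which for the genes tested were 9482. The E2F-type motif was in 7 of 31 promoters (22.6%) of the replication genes and in 1 of 23 (4.35%) of the mitosis genes, in 18.4% of the other replication genes and in 27.3% of the G1/S regulators, against 3.87% of the genes tested. The CHR-type motif TTTGAA, an element of many genes of late cell cycle phases, was in 4 of 31 (12.9%) and in 8 of 23 (34.8%) of these 2 lists, in 18.4% of the other replication genes and in 27.3% of the G1/S regulators, against 13% of the genes tested. The CCAAT box, the element that NF-Y binds, was in 20 of 31 (64.5%) and in 19 of 23 (82.6%), in 44.7% of the other replication genes and in 36.4% of the G1/S regulators, against 40.6%. The last 2 motifs were chosen after the data were seen, and each was searched on both strands in the 250 bases before the RefSeq start site.

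Single normal cys mice standing apart were looked for in 62 values (the 37 genes, the gene lists and the marker lists) by the gap of an extreme mouse to the next one over the whole range. None of the 62 exceeded Dixon's critical value of 0.829 (0 of 62, where chance gives 3.1). With 4 mice the gap must fill most of the range to pass, so the result does not show that no mouse stood apart. The 62 values are not independent either, since the means over the 37 genes and their roles use those same genes. The low cys libraries were not examined in this way. The value closest to it among the replication genes was that of Tk1 in X1SI4 (0.819).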
